A study of Mus musculus with 19 samples.

Results

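The 10 genes described here encode the proteins that bind bacterial lipopolysaccharide (LPS), relay its signal at the cell membrane, restrain that signal, or inactivate the molecule. They are Lbp, Cd14, Tlr4, Ly96, Tlr2, Myd88, Ticam1, Ticam2, Irak3 and Aoah, and they were chosen by gene symbol from a table of 57010 genes. That choice was made with earlier results of these data known. All 10 of 10 passed the expression filter that left 17757 genes for testing. Messenger RNA was measured by bulk sequencing of prefrontal tissue (its medial part) from wild-type mice, whose strain, sex and age are not given in the sources used here. Control mice (n = 4, numbered 1, 2, 4 and 5) had 8 days of saline gavage and 5 days of saline injections into the peritoneum. LPS mice (n = 5) had the same gavage and were injected with LPS at 1 mg/kg instead. Sedanolide mice (n = 5) were gavaged with sedanolide, a phthalide from celery, at 20 mg/kg and injected with saline, while co-treated mice (n = 5) received both agents. Gavage began 3 days ahead of the first LPS injection in both LPS-injected groups. The study asked whether sedanolide alters the response of the brain to LPS, and nothing in the labels says whether replicates of a group are separate animals, so p-values measure the spread between these samples only.

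LPS, a glycolipid of the outer membrane of Gram-negative bacteria, is carried by the plasma protein LBP to CD14, which hands single molecules to the receptor TLR4 and its partner MD-2, encoded by Ly96. TLR4 at the cell surface signals through the adaptor MyD88 to cytokine genes, and TLR4 taken into endosomes signals through TRAM (Ticam2) and TRIF (Ticam1) to interferon genes. In the brain, microglia and the macrophages along its borders are the main cells that carry this receptor complex, while Lbp is known best as an acute-phase gene of the liver.

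Library totals ran from 19.1 to 24.3 M counts (M stands for mega). Transcripts of the olfactory bulb, which lies in front of the prefrontal cortex, set libraries apart within groups. The bulb marker Cdhr1 stood at 57.6 to 444 CPM (counts per M of the scaled library total) in 7 libraries, which were control 1 and 5, LPS 2, 3 and 4, and sedanolide 3 and 4. It stood at 2.29 to 9.91 CPM in the other 12, which include all 5 co-treated libraries. Calls of members that were lost in the 12 bulb-poor libraries alone are given with that value below. Control 4 was the lowest control for 9 of the 10 members, and in the summed markers of microglia, monocytes, border macrophages, endothelium and fibroblasts. Markers of cortical excitatory neurons were present in all libraries, as fits the labelled tissue, and summed to 2659 to 8196 CPM. The sums of control 1 (2659 CPM) and control 5 (3937 CPM), both high in Cdhr1, lay below those of all other libraries. The next was LPS 2 at 4926 CPM.

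In control cortex the members were low but detected. Per kb of exon, the scale on which genes can be compared, Myd88 stood highest at 2.29 CPM per kb ± 0.43 (SD, n = 4), followed by Cd14 at 1.81 ± 0.47 and Ticam1 at 1.61 ± 0.35. These neighbours overlap within their spread. Ly96, Tlr2, Lbp and Tlr4 lay between 0.452 and 0.852 CPM per kb, Irak3 at 0.283, Ticam2 at 0.114 and Aoah, the lowest, at 0.0697 ± 0.0455. After LPS the order of levels was led by Cd14 at 7.44 CPM per kb ± 0.87 (SD, n = 5), ahead of Myd88 at 3.34 and Tlr2 at 3.16, and Aoah moved from the lowest place to 0.985.

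LPS treatment raised 8 of the 10 genes and lowered none. Without control 4, 6 were called higher, since Tlr4 and Ticam1 were no longer called. A call means an adjusted p below 0.05 by edgeR's quasi-likelihood F test, with p-values adjusted over all genes tested after Benjamini and Hochberg; 8.47% of those genes were called higher and 2.44% lower. In 9 of 10 every LPS library lay above every control library, which 7.93% of all genes tested did. The members' median log2 fold change was 1.19, against -0.0034 over all genes tested. The plot of CPM by library shows the 4 groups for each gene.

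**Figure D1:**
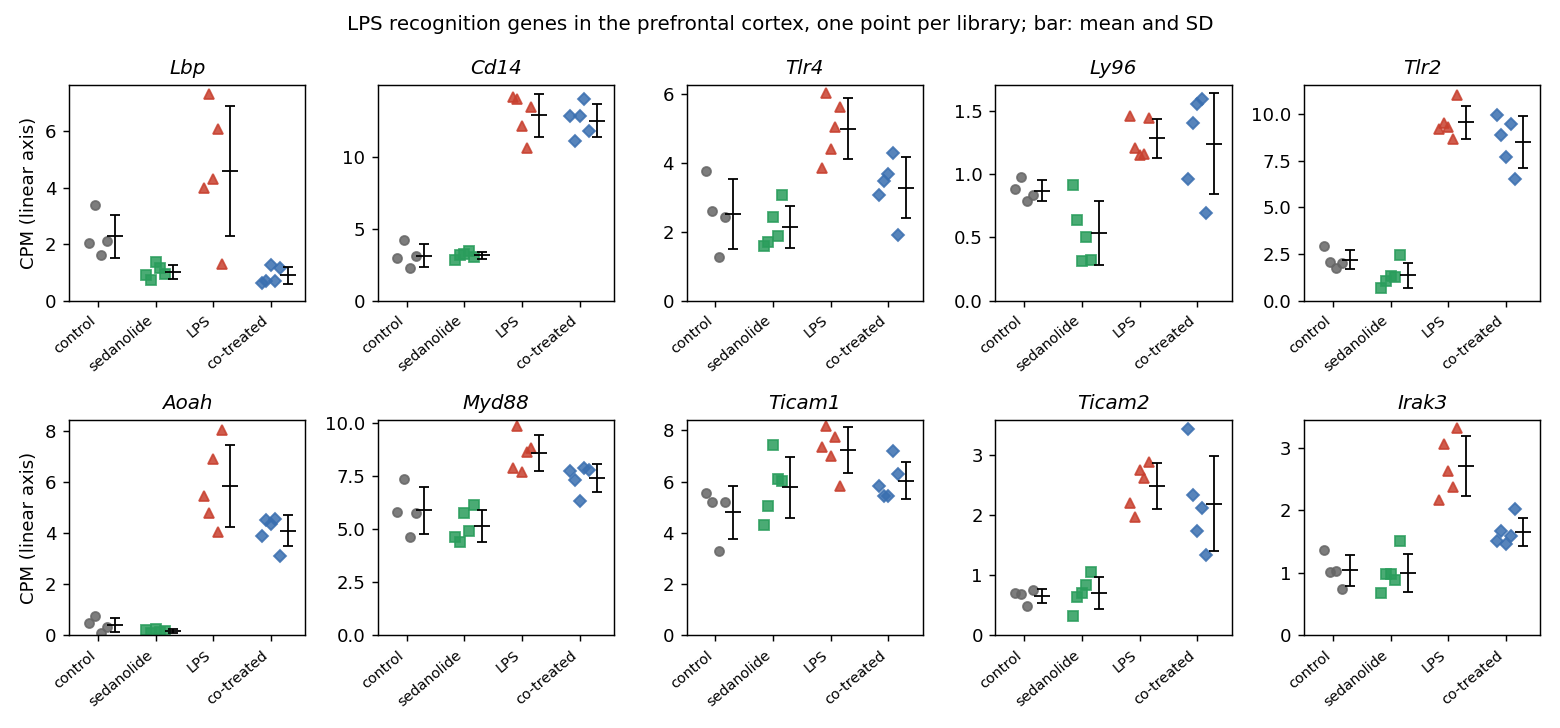
CPM (linear axis from 0) of the 10 genes in each of the 19 libraries, with 1 point per library and a bar for the group mean and SD (n = 4 control, n = 5 in the other groups). Cd14, Tlr2, Aoah and Ticam2 are high in both LPS-injected groups, whereas Lbp in the co-treated libraries lies at 0.641 to 1.27 CPM, below every control and LPS library.

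Among the genes that capture LPS outside the cell, Cd14 showed the most even rise. It was at 2.95, 4.22, 2.26 and 3.09 CPM in control libraries 1, 2, 4 and 5, and at 14.2, 14.0, 12.1, 10.6 and 13.5 CPM in LPS libraries 1 to 5. The lowest LPS library was above the highest control by more than the spread of either group. The rise was 4.11-fold, with a log2 fold change of 2.04 (SE 0.14, edgeR adjusted p = 1.72e-08). Lbp, the carrier protein upstream of CD14, was far less even: 2.03, 3.38, 1.62 and 2.13 CPM in control libraries 1, 2, 4 and 5 against 3.99, 7.31, 4.31, 6.10 and 1.29 CPM in LPS libraries 1 to 5. LPS library 5 was lower than every control, and the other 4 were higher than every control. The log2 fold change of Lbp was 1.01 (SE 0.35, edgeR adjusted p = 0.0724), so it was not called. DESeq2 called it (adjusted p = 0.0489), which brings its count to 9 of 10, and so did edgeR with the bulb markers as a covariate (adjusted p = 0.0411). It was also called without LPS replicate 5 (log2 1.24, edgeR adjusted p = 0.00373) and without control replicate 2 (log2 1.25, edgeR adjusted p = 0.0352). In the bulb-poor libraries, which keep LPS 1 and 5 and control 2 and 4, the log2 fold change was 0.06 (edgeR adjusted p = 0.959).

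The receptors differed in size of response. Tlr4, the signalling receptor for LPS, was at 3.76, 2.59, 1.28 and 2.42 CPM in control libraries 1, 2, 4 and 5 and at 3.85, 6.02, 4.40, 5.04 and 5.62 CPM in LPS libraries 1 to 5. Control 1 and LPS 1 were almost level, and all other LPS libraries stood clear of the controls. The log2 fold change of Tlr4 was 0.98 (SE 0.27, edgeR adjusted p = 0.0221). That call was lost without control replicate 4 (edgeR adjusted p = 0.0729), without control replicate 5 (0.0703) and without LPS replicate 2 (0.0528). A lncRNA on the same strand overlaps Tlr4 (chr4:66745821-66848521, plus strand) and held 31 counts a library on average.

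Ly96 encodes MD-2, the subunit that holds the lipid chains of LPS. It was at 0.886, 0.973, 0.785 and 0.834 CPM in control libraries 1, 2, 4 and 5 and at 1.46, 1.20, 1.15, 1.16 and 1.45 CPM in LPS libraries 1 to 5, from 16 to 31 counts a library. The groups did not overlap, but the log2 fold change of 0.56 (SE 0.28, edgeR adjusted p = 0.236) was not called. Tlr2, a receptor for bacterial lipoproteins rather than for LPS, was at 2.95, 2.08, 1.77 and 2.00 CPM in control libraries 1, 2, 4 and 5. In LPS libraries 1 to 5 it was at 9.20, 9.51, 9.29, 8.67 and 11.03 CPM, far above all controls. Its log2 fold change of 2.10 (SE 0.24, edgeR adjusted p = 4.1e-06) was larger than that of Tlr4, with 95% intervals of 1.63 to 2.57 and 0.45 to 1.50.

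Aoah had the largest change of the 10. It encodes acyloxyacyl hydrolase, which removes the secondary acyl chains of lipid A so that LPS no longer activates TLR4. Aoah was at 0.480, 0.741, 0.0982 and 0.334 CPM in control libraries 1, 2, 4 and 5, from 2 to 16 counts each, and at 5.45, 4.78, 6.90, 4.03 and 8.03 CPM in LPS libraries 1 to 5. The lowest LPS library stood more than 5 times above the highest control. The fitted rise was 13.8-fold, a log2 fold change of 3.79 (SE 0.33, edgeR adjusted p = 1.65e-07). Irak3 encodes IRAK-M, a kinase-like protein of macrophages that damps signalling from MyD88. It was at 1.37, 1.02, 1.03 and 0.751 CPM in control libraries 1, 2, 4 and 5 and at 2.16, 3.06, 2.63, 2.37 and 3.32 CPM in LPS libraries 1 to 5, without overlap. Its log2 fold change was 1.37 (SE 0.22, edgeR adjusted p = 0.000185).

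The 3 adaptors did not move by the same amount. Ticam2, whose product TRAM links endosomal TLR4 to TRIF, was at 0.701, 0.695, 0.491 and 0.751 CPM in control libraries 1, 2, 4 and 5. In LPS libraries 1 to 5 it reached 2.21, 1.98, 2.75, 2.62 and 2.89 CPM, all clear of the controls, for a log2 fold change of 1.90 (SE 0.29, edgeR adjusted p = 0.000119). Myd88, the adaptor of the surface pathway, had a control median of 5.79 CPM (4.66 to 7.37) and an LPS median of 8.67 CPM (7.72 to 9.90). The groups came close but did not overlap, and Myd88 rose by a log2 fold change of 0.54 (SE 0.13, edgeR adjusted p = 0.00993). Ticam1, which encodes TRIF, had a control median of 5.20 CPM (3.29 to 5.57) and an LPS median of 7.37 CPM (5.84 to 8.18). It rose by a log2 fold change of 0.58 (SE 0.17, edgeR adjusted p = 0.028). The 95% interval of Ticam2 (1.33 to 2.47) lies above those of Myd88 (0.28 to 0.80) and Ticam1 (0.26 to 0.91). In the 12 bulb-poor libraries the calls of Tlr4, Myd88 and Ticam1 were lost (edgeR adjusted p = 0.102, 0.321 and 0.192), while Cd14, Tlr2, Aoah, Ticam2 and Irak3 were still called. Ticam1 also lost its call without control 4 or 5 or LPS 1, 2 or 4, at edgeR adjusted p from 0.0513 to 0.101.

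The 2 members with the largest rise among those with a RefSeq promoter were Aoah and Tlr2, and their sequence just upstream of the start is shown because promoters of LPS-induced genes often hold NF-kB sites. The stretches come from RefSeq on GRCm38.p6 and are written in the direction of the gene. Aoah covers chr13:20793863-20794112 (plus strand) and Tlr2 chr3:83841768-83841858 (minus strand), the latter ending where the first transcript of GENCODE vM21 begins. Capitals mark matches to GGGNNNNNCC, the pattern searched for NF-kB on both strands.
Aoah: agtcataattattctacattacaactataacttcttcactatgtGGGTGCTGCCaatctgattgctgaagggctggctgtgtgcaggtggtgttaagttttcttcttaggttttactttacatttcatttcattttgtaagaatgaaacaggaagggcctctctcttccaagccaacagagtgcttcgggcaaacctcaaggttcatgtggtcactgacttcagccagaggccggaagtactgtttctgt
Tlr2: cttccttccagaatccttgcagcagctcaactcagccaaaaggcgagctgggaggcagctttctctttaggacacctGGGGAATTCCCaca
The Tlr2 match joins 2 overlapping matches, and spans positions -173 to -163, counted from the RefSeq start. The Aoah match spans -206 to -197. Such a pattern is found in 45.8% of 32851 RefSeq windows of 250 bases, so its presence alone does not mark these genes. In all, 6 windows were at hand for 5 of 10 members, and Irak3 and Ticam1 also held the NF-kB pattern while Myd88 did not. The Irak3 window at chr10:120202131-120202380 held none. In its other window the match starts at -26, past the last base upstream of the GENCODE vM21 start at -63. That of Ticam1 ends at -14, past the last such base at -20. Of the other patterns searched on both strands, TTCNNNGAA (STAT, in 7.02% of windows) matched in Myd88 and GAGGAA (PU.1, in 23.3%) in Ticam1. TGANTCA (AP-1, in 6.75%) matched in none of the 5. A match is a description of letters and not evidence of a bound site.

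Several members share their place in the genome with other genes, and whether strand was used in counting is not given. Ticam2 (chr18:46690358-46707600, minus strand) lies over Tmed7 on the same strand, which held 3091 counts a library on average against 7 to 75 for Ticam2. Myd88 (chr9:119165000-119170477, minus strand) overlaps Acaa1a on the plus strand, and Irak3 (chr10:119977553-120038035, minus strand) overlaps Tmbim4 on the plus strand. Levels of these members may therefore include reads of their neighbours. Cd14 (chr18:36858120-36859851, minus strand), Tlr2 (chr3:83743579-83749074, minus strand) and Lbp (chr2:158148413-158174772, plus strand) overlap no other gene of the table, nor do Ly96 (chr1:16758275-16779835, plus strand) and Ticam1 (chr17:56576319-56583786, minus strand). Aoah (chr13:20978283-21220787, plus strand) overlaps only genes with 0 counts. Coordinates are those of the deposited table, whose genome build is not given.

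Markers of immune and vascular cells moved with these genes. The summed level of 12 microglial markers was 544 to 781 CPM in controls and 1277 to 1580 CPM after LPS, with 9 of 12 called higher and none at 0. Neutrophil markers rose from 8.47 to 13.9 CPM in controls to 71.7 to 78.1 CPM after LPS, with 10 of 10 tested markers called. Csf3r alone averaged 5.85 CPM of a mean sum of 10.7 CPM in controls, and 26.0 of 75.2 CPM after LPS. Monocyte markers went from 65.5 to 134 CPM to 221 to 356 CPM (7 of 8 called), and endothelial markers from 345 to 537 CPM to 677 to 836 CPM (10 of 10 called). Their part in the rise of the 8 members was not tested, and more cells of a type cannot be told apart from more RNA per cell in bulk tissue. Border macrophage markers summed to 23.6 to 52.8 CPM in controls and 66.1 to 136 CPM after LPS, with 2 of 8 called higher (Ms4a7 and Stab1) and 1 lower (Lyve1).

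Other genes of the pathway were read from lists drawn up for the purpose, likewise with earlier results of these data known. Of 12 tested genes for other Toll-like receptors and their chaperones, 8 rose and none fell after LPS. Tlr8, an endosomal RNA sensor, rose by a log2 fold change of 2.16 (SE 0.57, edgeR adjusted p = 0.0166) from 0.173 to 0.785 CPM on average. Its counts were low, at 3 to 5 in control and 8 to 23 in LPS libraries. Tlr1, the partner of TLR2, rose by 1.97 (SE 0.28, edgeR adjusted p = 6.28e-05) on the log2 scale, and Tlr13, a mouse sensor of bacterial ribosomal RNA, by 1.95 (SE 0.16, edgeR adjusted p = 7.38e-08). The median log2 fold change of this list was 1.68.

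Of 16 tested kinase and ubiquitin ligase genes downstream of MyD88, 2 rose, a share of 12.5% against the 8.47% of all genes tested. They were Irak4 (log2 fold change 0.90, SE 0.19, edgeR adjusted p = 0.00248) and Map3k8 (0.57, SE 0.16, edgeR adjusted p = 0.028). The list's median was 0.02, and 5 of 16 had an unadjusted p below 0.05. Irak4 encodes the first kinase recruited to MyD88. The call of Map3k8 was lost without control 4 or 5 or LPS 1 or 2, with no expression filter, with only the groups compared and in the bulb-poor libraries (edgeR adjusted p from 0.0707 to 0.269). In the TRIF branch 5 of 10 rose, with a median of 0.44. Zbp1, a sensor of left-handed nucleic acid, rose by 1.88 (SE 0.40, edgeR adjusted p = 0.0036) on the log2 scale. Ripk3, the necroptosis kinase, rose by 1.79 (SE 0.49, edgeR adjusted p = 0.0215) and Ikbke by 1.04 (SE 0.26, edgeR adjusted p = 0.0103). Counts were low for Zbp1, at 2 to 21 in control and 25 to 31 in LPS libraries. Those of Ripk3 were 1 to 9 and 7 to 22, and its groups overlapped. Ripk3 lost its call without control 4 or 5 or LPS 1 or 3 (edgeR adjusted p from 0.0508 to 0.0894), with the replicate block (0.0641) and in the bulb-poor libraries (0.412).

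Inhibitors of TLR4 signalling rose in 4 of 12 tested cases, with a median log2 fold change of 0.30. Cd180 and Ly86, which form a TLR4-like decoy complex known as RP105 and MD-1, rose by 1.68 (SE 0.18, edgeR adjusted p = 1.52e-06) and 1.09 (SE 0.16, edgeR adjusted p = 5.47e-05). Sigirr, a membrane inhibitor of the receptor family, rose by 1.11 (SE 0.23, edgeR adjusted p = 0.0025). Among genes of LPS transfer and uptake 5 of 9 tested rose. The scavenger receptor Msr1 rose by 2.64 (SE 0.36, edgeR adjusted p = 3.03e-05) and the lipid exporter Abca1 by 0.73 (SE 0.19, edgeR adjusted p = 0.0174). Marco, another scavenger receptor, had a single count over the 4 control libraries and 3.17 to 10.8 CPM in LPS libraries (edgeR adjusted p = 5.09e-07). Abca1 was no longer called without control 4 (edgeR adjusted p = 0.0603), with no expression filter (0.0578), with only the groups compared (0.0905) or with the replicate block (0.0516). Of 6 tested genes in the list for the cytosolic LPS sensing pathway 4 rose. Among them were the caspase gene Casp4 (log2 1.75, SE 0.37, edgeR adjusted p = 0.00307), the pore-forming Gsdmd (1.44, SE 0.16, edgeR adjusted p = 3.12e-06) and the guanylate-binding Gbp5 (1.24, SE 0.12, edgeR adjusted p = 5.78e-07).

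**Figure D2:**
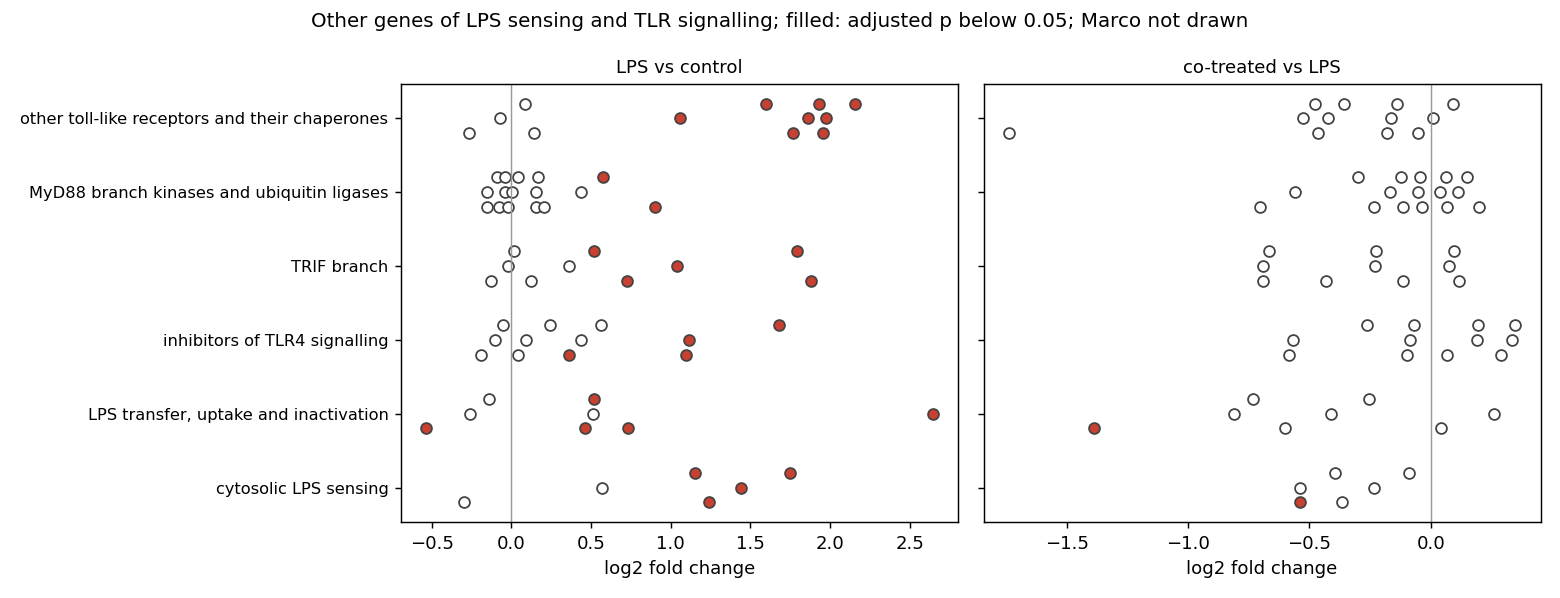
Log2 fold change (x axis) of each tested gene in the 6 pathway lists (rows) for LPS against control and for co-treated against LPS. Filled points are genes called at an adjusted p below 0.05, and Marco is not drawn; 8 of 12 other Toll-like receptor genes are filled in the first panel and none in the second.

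Co-treatment with sedanolide changed 1 of the 10 genes relative to LPS alone: Lbp fell. Among all genes tested 1.68% were called lower and 0.287% higher. Co-treated libraries 1 to 5 held Lbp at 0.641, 0.703, 1.27, 0.707 and 1.16 CPM. Every one of them was below the lowest LPS library, by a small margin for LPS 5 and a wide one for the others. The log2 fold change was -2.36 (SE 0.35, edgeR adjusted p = 0.00169), a level 0.195 times that of the LPS group. Leaving out any single library kept this call, with log2 fold changes from -2.59 to -2.13. In the bulb-poor libraries, with LPS 1 and 5 only, it was -1.55 and not called (edgeR adjusted p = 0.175). With the bulb markers as a covariate it was -1.96 (edgeR adjusted p = 0.0181).

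Markers of meningeal and perivascular fibroblasts were read beside Lbp. Between LPS and control libraries 0 of 9 were called, with a median log2 fold change of 0.17 against 1.01 for Lbp. The sum over the 9 markers was 81.9, 214, 136, 225 and 60.3 CPM in LPS libraries 1 to 5. From lowest to highest, these markers ran LPS 5, LPS 1, LPS 3, LPS 2 and LPS 4. Lbp ran LPS 5, LPS 1, LPS 3, LPS 4 and LPS 2, nearly the same order. Among LPS libraries, LPS 5 was also lowest in monocyte (221 CPM), border macrophage (66.1), endothelial (677), choroid plexus (2.46) and olfactory bulb (8.14) markers. It was not lowest in microglial, neutrophil, astrocyte or cortical excitatory neuron markers. The fibroblast sum was 165, 186, 56.0 and 127 CPM in control libraries 1, 2, 4 and 5, with a range of 58.7 to 79.5 CPM in co-treated and 50.8 to 77.7 CPM in sedanolide libraries. Control 4 was lowest and control 2 highest of the controls in both Lbp and that sum. No marker was at 0 throughout a group, and between co-treated and LPS libraries 0 of 9 were called by edgeR, 4 by DESeq2, and 8 had an unadjusted p below 0.05 (19.8% of all genes tested). An alternative with the markers' mean log2 level as a covariate was added after the data were seen. In it Lbp was called lower under co-treatment than after LPS alone (log2 -1.65, edgeR adjusted p = 0.0182), against log2 -2.36 without the covariate. Under the same covariate the LPS rise was called as well (log2 0.96, edgeR adjusted p = 0.0192). The part of fibroblasts in these Lbp differences was not tested.

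**Figure D3:**
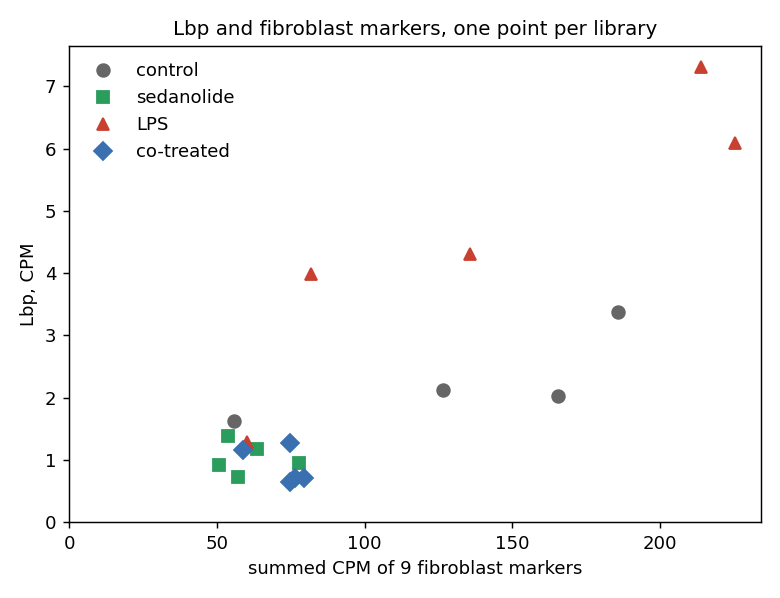
Lbp in CPM (y axis) against the summed CPM of 9 fibroblast markers (x axis), 1 point per library, coloured by group. The LPS libraries spread from 60.3 to 225 CPM of markers and from 1.29 to 7.31 CPM of Lbp, while all sedanolide and co-treated libraries lie under 80 CPM of markers and under 1.4 CPM of Lbp.

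None of the other 9 genes was called between co-treated and LPS libraries, although all 10 had a fitted change below 0. Irak3 came nearest. Co-treated libraries 1 to 5 were at 1.51, 1.67, 1.46, 1.59 and 2.02 CPM, each below the lowest LPS library at 2.16 CPM, and Irak3 and Lbp were the 2 of 10 members with that pattern (4.6% of all genes tested). The log2 fold change of Irak3 was -0.71 (SE 0.20, edgeR adjusted p = 0.0657). It was called by DESeq2 (adjusted p = 0.0242), in a fit of these 2 groups alone (edgeR adjusted p = 0.0396), without control replicate 1 (0.0467) and without sedanolide replicate 5 (0.0459). Tlr4, at 3.07, 3.47, 3.66, 4.29 and 1.89 CPM in co-treated libraries 1 to 5, overlapped the LPS group, with a log2 fold change of -0.60 (SE 0.25, edgeR adjusted p = 0.192).

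The strongest responders to LPS lay in or near the range of the LPS libraries under co-treatment. Cd14 was at 12.9, 11.1, 12.8, 14.1 and 11.8 CPM in co-treated libraries 1 to 5, within the range of the LPS libraries. Its log2 fold change was -0.04, with a 95% interval of -0.28 to 0.20 (edgeR adjusted p = 0.869), so a fall of more than 0.28 lies outside that interval. Tlr2 was at 9.94, 8.88, 7.71, 9.46 and 6.50 CPM, with a change of -0.17 (95% interval -0.57 to 0.24, edgeR adjusted p = 0.656). Aoah was at 3.89, 4.53, 4.37, 4.55 and 3.10 CPM, and 3 of these 5 lay inside the LPS range. The change of Aoah was -0.51 (95% interval -0.996 to -0.03, edgeR adjusted p = 0.256) and was not called. Its unadjusted edgeR p was 0.0513, although the approximate interval leaves out 0. Ticam2 ranged from 1.33 to 3.44 CPM, wider than the LPS group on both sides, with a change of -0.18 (95% interval -0.66 to 0.30). Myd88, Ticam1 and Ly96 had changes of -0.21, -0.26 and -0.05 and overlapped the LPS group.

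In the other pathway lists, co-treatment lowered 3 genes relative to LPS and raised none. They were Marco (log2 -2.47, SE 0.35, edgeR adjusted p = 0.00243), Msr1 (-1.39, SE 0.30, edgeR adjusted p = 0.0203) and Gbp2 (-0.54, SE 0.12, edgeR adjusted p = 0.0294). Marco held 0.818 to 1.27 CPM in the co-treated libraries, below all LPS libraries. Msr1 lost its call without LPS 2 or 3 or co-treated 1, 3 or 5 (edgeR adjusted p from 0.0504 to 0.0669), and Gbp2 without LPS 2, 3 or 4 or co-treated 1, 3, 4 or 5 (0.0513 to 0.107). Both also lost it with the replicate block (edgeR adjusted p = 0.0626 for Msr1 and 0.0898 for Gbp2), in the bulb-poor libraries (0.313 and 0.322) and with the fibroblast index (0.172 and 0.329), and Gbp2 with no expression filter (0.0535). With the bulb markers as a covariate none of the 3 was called (edgeR adjusted p = 0.0645 for Marco, 0.15 for Msr1 and 0.22 for Gbp2). None of the 12 other Toll-like receptor and chaperone genes was called (3 at an unadjusted p below 0.05, 2 by DESeq2). None of 16 MyD88 branch genes (2 and 1), 10 TRIF branch genes (2 and 1) or 12 inhibitors (4 and 0) was called either. The lists that held the 3 calls had more by these looser counts. In LPS transfer and uptake 7 of 9 had an unadjusted p below 0.05 and DESeq2 called 5. In cytosolic LPS sensing it was 3 of 6, and DESeq2 called 3. Among all genes tested 19.8% had an unadjusted p below 0.05. Between the same groups the summed microglial markers ranged from 1232 to 1604 CPM in co-treated libraries, with 0 of 12 called. Neutrophil markers at 33.5 to 45.1 CPM had 7 of 10 called lower, monocyte markers at 120 to 159 CPM had 4 of 8, and border macrophage markers at 40.4 to 57.8 CPM had 5 of 8. Csf3r, which was not among those 7, averaged 22.6 CPM of a mean neutrophil sum of 37.1 CPM in co-treated libraries. Endothelial markers at 475 to 625 CPM lay below every LPS library in sum, with 3 of 10 called lower (Tie1, Esam and Ly6c1) and 8 of 10 at an unadjusted p below 0.05. The part of these cells in the lower Lbp, Marco or Msr1 was not tested.

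**Figure D4:**
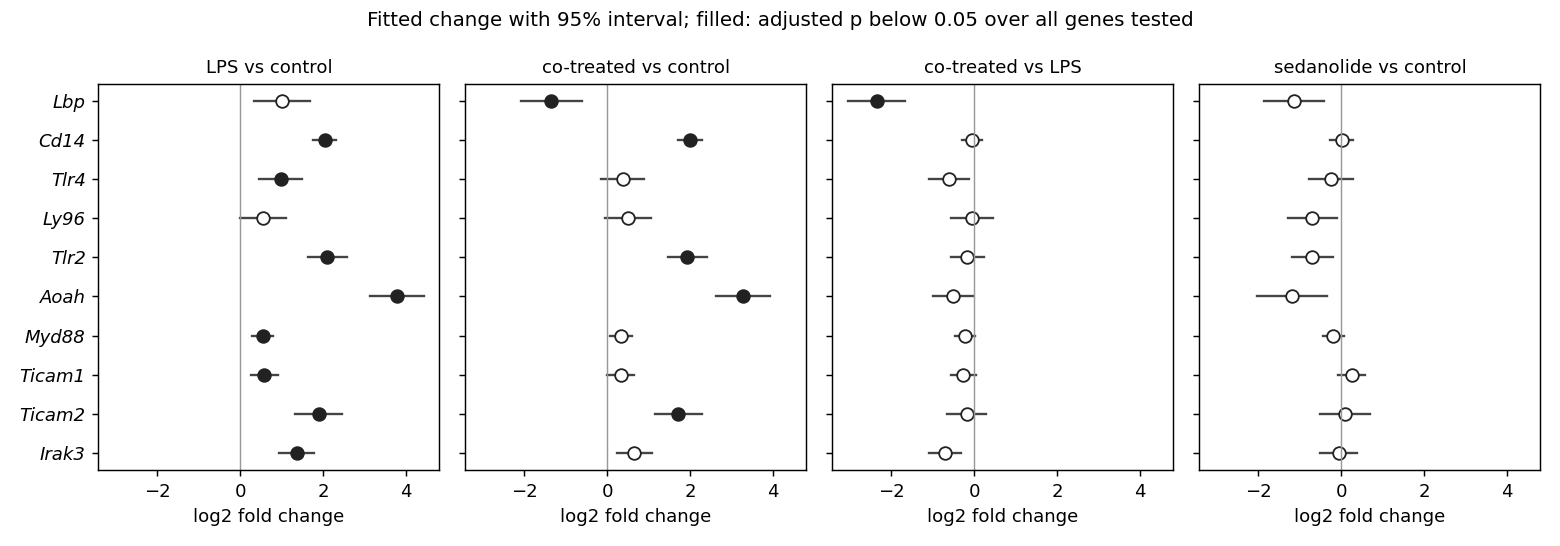
Fitted log2 fold change (x axis) with its 95% interval for each of the 10 genes (rows) in 4 comparisons (panels). Filled points were called at an adjusted p below 0.05 over all genes tested: 8 in LPS against control, 5 in co-treated against control, Lbp alone in co-treated against LPS and none in sedanolide against control.

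Set against saline controls, co-treated cortex had 4 members called higher and 1 called lower, where 6.38% and 4.69% of all genes tested were called in those directions. This comparison shares its controls with the one for LPS. The 4 were Cd14 (log2 fold change 2.00, SE 0.14, edgeR adjusted p = 4.28e-08), Tlr2 (1.94, SE 0.24, edgeR adjusted p = 2e-05), Aoah (3.28, SE 0.33, edgeR adjusted p = 1.99e-06) and Ticam2 (1.72, SE 0.29, edgeR adjusted p = 0.000685). In each of these, and in Irak3, every co-treated library was above every control, which held for 7.91% of all genes tested. Irak3 had a change of 0.66 (SE 0.22, edgeR adjusted p = 0.059), called without sedanolide replicate 5 (0.0407). Tlr4, Myd88 and Ticam1, all called after LPS alone, had changes of 0.37, 0.33 and 0.32 that were not called (edgeR adjusted p = 0.388, 0.109 and 0.208), and the difference between them and the LPS group was not called either. Myd88 was called without control replicate 2 (log2 0.45, edgeR adjusted p = 0.0278), and Ticam1 with the bulb markers as a covariate (log2 0.58, edgeR adjusted p = 0.0267).

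Lbp was lower in co-treated cortex than in saline controls. All 5 co-treated libraries were below the lowest control at 1.62 CPM, as 4.93% of all genes tested were. The log2 fold change was -1.35 (SE 0.37, edgeR adjusted p = 0.0269). This call was lost with the bulb markers as a covariate (edgeR adjusted p = 0.136), with the fibroblast markers as one (-0.69, edgeR adjusted p = 0.252), and in the bulb-poor libraries (-1.49, edgeR adjusted p = 0.0542). It was also lost when control 1, 2 or 5 or co-treated 1, 2 or 4 was left out (edgeR adjusted p from 0.0508 to 0.0644).

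Sedanolide without LPS changed none of the 10 genes at an adjusted p below 0.05, where 5.31% of all genes tested were called. At an unadjusted p below 0.05 there were 4 of 10 (24.9% of all genes tested), and DESeq2, which left 1 member with no adjusted p here and in the interaction, called 2, Lbp and Tlr2. Lbp was at 0.914, 0.733, 1.38, 1.17 and 0.958 CPM in sedanolide libraries 1 to 5, all below the lowest control, as 3.56% of all genes tested were. Its log2 fold change was -1.14 (SE 0.37, edgeR adjusted p = 0.0712), and -0.42 (edgeR adjusted p = 0.531) with the fibroblast markers as a covariate. It was called without LPS replicate 5 (edgeR adjusted p = 0.0268). Between these groups 2 of 9 fibroblast markers, Dcn and Lum, were called lower by edgeR, 6 were called by DESeq2, and 8 had an unadjusted p below 0.05.

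Tlr2 stood at 0.686, 1.08, 1.33, 1.26 and 2.46 CPM in sedanolide libraries 1 to 5, with 4 of them below every control and sedanolide 5 inside the control range. The change of -0.70 (SE 0.25, edgeR adjusted p = 0.098) was not called, and without sedanolide replicate 5 it was -1.02 and called (edgeR adjusted p = 0.0225). Aoah, at 0.0977 to 0.267 CPM or 2 to 6 counts a library, had a change of -1.18 (SE 0.43, edgeR adjusted p = 0.101), which was called without control replicate 4 (edgeR adjusted p = 0.0273). Ly96, at 0.311 to 0.914 CPM, had one of -0.70 (SE 0.30, edgeR adjusted p = 0.156). Cd14 was nearly level with controls, at 2.83 to 3.44 CPM and a change of 0.01 (95% interval -0.27 to 0.29). For Tlr4, Myd88, Ticam1, Ticam2 and Irak3 the groups overlapped and changes lay between -0.24 and 0.26.

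The interaction, which asks whether the sedanolide change with LPS differs from that without it, was called for none of the 10 genes, against 0.586% of all genes tested. Lbp (log2 -1.22, SE 0.51, edgeR adjusted p = 0.25), Ticam1 (-0.52, SE 0.23, edgeR adjusted p = 0.269) and Irak3 (-0.65, SE 0.30, edgeR adjusted p = 0.292) had unadjusted p below 0.05, and DESeq2 called none. Whether the Lbp difference under sedanolide depends on LPS was therefore not shown.

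The genes closest in pattern over all 19 libraries were found for the 5 members called higher after LPS at 2-fold or more. Closeness was the mean absolute difference of log2 CPM change from the control mean. Cd14 was followed most closely by Pld4, at a mean difference of 0.136, then by Ebi3 (0.178) and Csf3r (0.180), the last of which is also in the neutrophil marker list. The median over 13292 candidate genes was 1.19 for Cd14. Nearest to Tlr2 were Neurl3 (0.248), Gpr35 (0.266) and C3ar1 (0.274), which encodes the complement C3a receptor and went from 3.65 CPM in controls to 15.1 CPM after LPS and 14.1 CPM under co-treatment. Irak3 ran closest to C5ar2 (0.197), a receptor for complement C5a, followed by Apobec1 (0.214) and Arhgap4 (0.224). C5ar2 averaged 0.960 CPM in controls, 2.38 CPM after LPS and 1.65 CPM under co-treatment. Ticam2 had Siglece (0.277), Cd68 (0.278) and Fcgr3 (0.278) as nearest genes, while for Aoah the nearest, Itgax (0.577), Ly9 (0.649) and Fcgr4 (0.673), were farther off. These lists describe likeness over the same libraries that set the group differences.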

How the data were processed

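Counts were read for the 10 members and all other genes from 1 merged table of 19 libraries. The deposited values are raw whole-number gene counts made by the authors from polyA-selected, strand-marking Illumina libraries, per the labels' protocols. Per the submitters' processing notes, fastp, HISAT2, StringTie, RSEM and DESeq2 were used, with no versions. The file carries the name of featureCounts, and its settings, strand use and genome build are not given in the sources used here. Of 52029 gene identifiers shared with GENCODE vM21 on GRCm38, 2.81% shared a gene start, and coordinates are therefore given as deposited. Exon lengths came from vM21 by gene identifier, and the spans of all 10 members were equal in both.

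All 19 libraries entered 1 edgeR 4.0.16 model (R 4.3.3) with a mean per group, TMM factors, the default filter by group, robust quasi-likelihood dispersions and two-sided tests. Benjamini-Hochberg adjustment ran over 17757 genes. SE is the absolute log2 fold change over the square root of F, and 95% intervals are 1.96 SE. This normal quantile makes the intervals approximate and narrower than the F test implies. They can leave out 0 where the unadjusted p is above 0.05, as for Aoah in co-treated against LPS. CPM uses the library total times its TMM factor, with no pseudocount. The script was tested on simulated data.

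Pathway genes are named by a rule: up to 3 called members a list with the largest change, in LPS against control and co-treated against LPS. The members and lists were chosen with earlier results of these data known. Alternatives were RLE factors, no filter, DESeq2 1.42.0, the compared groups alone, the replicate number as a block, bulb-poor libraries (Cdhr1 below 20 CPM), a 4-marker bulb index, and leaving out each library. A fibroblast index was added after seeing the data. No 2 libraries of a group held identical counts. A control replicate 3 was not analysed here, and the result of 1 gene in the pathway lists is not reported here.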

Additional observations from a re-analysis of the deposited data

Results flagged for a closer look

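A closer look is warranted at Ticam1 in control replicate 4, at 3.29 CPM. The other 3 controls lay at 5.19 to 5.57 CPM, and the gap between control 4 and the nearest of them took up 0.831 of the group's whole range. This was the only such case among 40 combinations of a gene and a group. Chance gives about 1 in 20, so 1 in 40 is no more than chance gives. Control 4 was the lowest control for 9 of the 10 members, all but Irak3. Its summed markers of microglia (544 CPM), monocytes (65.5), border macrophages (23.6), endothelium (345) and fibroblasts (56.0) were also the lowest of the controls. Without it the LPS change of Ticam1 was 0.44 and not called (edgeR adjusted p = 0.101).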

How the results depend on the processing

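Of 10 members, the number called in LPS against control was 8, and it was 5 with only the groups compared, 5 in the bulb-poor libraries and 6 to 9 with 1 library left out. In sedanolide against control it was 0, and 2 by DESeq2 and 0 to 1 with a library left out (1 without control 4, LPS 5 or sedanolide 5). In co-treated against LPS it was 1, and 2 by DESeq2, 2 with only those groups, 0 in the bulb-poor libraries and 1 to 2 with a library left out (2 without control 1 or sedanolide 5). In co-treated against control it was 5, and 4 to 6 with a library left out. The interaction stayed at 0 under every alternative run. With only the groups compared, Tlr4, Myd88 and Ticam1 lost their LPS calls (edgeR adjusted p = 0.0736, 0.063 and 0.0946), and Ticam1 also with no filter (0.0573). Cd14, Tlr2, Aoah and Ticam2 were called in both LPS-injected groups against control under all alternatives. Counts are low for Aoah, Ly96 and Ticam2, which limits what could be detected.

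The replicate numbers showed no sign of pairing the samples: 5 of 27 same-numbered pairs had a correlation of deviations above 0.1 (median -0.05). In the same check 1 of 19 libraries was closest to its own number. Bulb content differed within groups and enters these correlations, so they cannot exclude a pairing. With the replicate number as a block, the LPS calls of Tlr4 (edgeR adjusted p = 0.0789) and Ticam1 (0.1) and the co-treated against control call of Lbp (0.0523) were lost, and co-treated against LPS Lbp was kept (log2 -2.29, 0.0115).

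Calls over all genes moved by more than 1.5 times in places. In LPS against control 1938 became 1114 with only the groups compared and 848 in bulb-poor libraries. In sedanolide against control 943 became 439 with no filter, 1934 by DESeq2, 19 with only the groups compared, 95 with the block, 8 in bulb-poor libraries and 27 with the fibroblast index. In co-treated against LPS 350 became 952 by DESeq2, 723 with only the groups compared, 145 with the block, 35 in bulb-poor libraries, 98 with the bulb index and 71 with the fibroblast index. In co-treated against control 1965 became 1244 with no filter, 954 with the block, 615 in bulb-poor libraries, 1084 with the bulb index and 1016 with the fibroblast index. For the interaction 104 became 463 by DESeq2, 32 with the block, 20 in bulb-poor libraries, 253 with the bulb index and 201 with the fibroblast index.

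None of the log2 fold changes that turned sign was called as reported. In sedanolide against control, Cd14 was -0.0056 with no filter, -0.13 in bulb-poor libraries, -0.0020 with the bulb index and -0.11 to 0.18 with a library left out. Tlr4 was 0.10 in bulb-poor libraries, 0.13 with the fibroblast index and -0.45 to 0.025 with a library left out. Irak3 was 0.019 in bulb-poor libraries and -0.25 to 0.11 with a library left out, and Ticam2 was -0.075 to 0.29. In co-treated against LPS, Cd14 was 0.010 with the fibroblast index, and Ly96 was -0.15 to 0.10 with a library left out. For the interaction in bulb-poor libraries, Lbp was 0.00075, Cd14 0.0026 and Myd88 0.12. Interaction values with a library left out were -0.22 to 0.071 for Cd14 and -0.145 to 0.0725 for Myd88, and Myd88 was 0.0018 with no filter and 0.0013 with the bulb index. The cause was not tested. Of the other pathway genes named above, Tlr8, Ikbke, Sigirr and Casp4 lost their LPS call in the bulb-poor libraries only (edgeR adjusted p = 0.399, 0.405, 0.323 and 0.164).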
